A study of Mus musculus with 15 samples.

Results

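Nfatc1, Nfatc2 and Nfatc3 were followed in RAW 264.7 cells, a mouse macrophage line that forms osteoclast-like cells, over 5 days of culture, in cells left untreated and in cells given RANKL. RANKL is a ligand of the TNF family that acts through its receptor RANK on myeloid precursors and makes them fuse into osteoclasts, the cells that resorb bone. Members were the probe sets annotated to a single Nfat family gene. They numbered 6 of the 12422 probe sets tested, for 3 of the 8251 genes named by a probe set of their own. Nfatc1 had 1 probe set (102209_at), Nfatc2 had 3 (93073_at, 93074_g_at and 93075_r_at) and Nfatc3 had 2 (97975_at and 102050_at). Nfatc4 and Nfat5 had 0. For Nfatc2 and Nfatc3 the brightest probe set by its mean over arrays (93073_at and 97975_at) stands for the gene below, and the others are given beside it.

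NFAT proteins are transcription factors held in the cytoplasm by phosphorylation. A rise in cytosolic calcium activates calmodulin and then the phosphatase calcineurin, which strips the phosphates, so that NFAT enters the nucleus and binds GGAAA-type sites, often together with AP-1 proteins such as Fos. Nfatc1 is known as the master transcription factor of osteoclast formation: RANKL induces it through NF-kB and Fos, it raises its own transcription, and it drives genes of the resorbing osteoclast. Nfatc2 and Nfatc3 are known best from lymphocytes, and Nfatc2 has been placed early in the induction of Nfatc1.

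In all, 15 RNA samples in 9 groups were measured, each on an Affymetrix array of its own. Control cells received no RANKL and gave 1 array at day 1, 2 each at days 2, 3 and 4, and 1 at day 5. Cells given RANKL gave 1 array at day 1 and 2 each at days 2, 4 and 5, and none of the 15 arrays was of RANKL at day 3. All cells were grown in alpha-MEM with serum. The additions of days 0 and 3, RANKL or none, were made in serum-free alpha-MEM. The labels describe every control culture as mononuclear. They describe RANKL cultures as mononuclear up to day 2 and as multi-nuclear from day 4. The model is 1 cell line, and the labels do not say whether arrays of a group come from separate cultures, so p-values measure the spread between these arrays, which may be technical. In RNA of whole cultures, fewer cells of a type and less RNA per cell cannot be told apart.

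Values are MAS5 signals, a linear measure of probe set brightness that the authors had scaled to a 2% trimmed mean of 499.5 to 499.6 on every array. Median signals ran from 102 (RANKL day 1) to 148, and the correlation of replicate arrays (log2 signal, across probe sets, which share their arrays) was 0.975 to 0.984. The ratio of the 3' to the 5' beta-actin control signal, a sign of RNA integrity, ran from 1.01 to 1.39. Of 8 macrophage markers, 8 were measured, with a summed signal of 29598 to 75165, lowest at RANKL day 5. Over days 2, 4 and 5, 4 were called lower in RANKL cells (Adgre1, Itgam, Fcgr1 and Mpeg1), where 2.36% of all genes were. Csf1r, Lyz2, Cd14 and Cd68 were not called, at -0.30, -0.33, -0.34 and 0.12 in log2. Of 5 measured osteoclast markers Acp5, Ctsk and Mmp9 were called higher, where 1.71% of all genes were. Calcr and Itgb3 stayed below 200 on every array. Markers of T cells (7 measured, 6 below 200 throughout), B cells (5 measured, 3 below 200 throughout) and stromal cells (5 measured, 3 below 200 throughout) had 0 calls between treatments over the same days.

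Sequences around transcription starts are shown for the calcineurin feedback inhibitor Rcan1, for the resorption genes Acp5 and Ctsk, and for Nfatc2, because these genes carry the contrasts described below. Each window runs from 250 bases before to 50 bases after a RefSeq start (build GRCm38.p6), and capitals mark GGAAA, the core of NFAT sites, or its complement TTTCC. The RefSeq promoter table used here held no entry for Nfatc1, Myc, Mmp9 or Car2. Rcan1 has an upstream start (chr16:92466120-92466419, minus strand) and a downstream start (chr16:92400029-92400328, minus strand). The windows of Acp5 (chr9:22130549-22130848, minus strand), Ctsk (chr3:95498960-95499259, plus strand) and Nfatc2 (chr2:168601608-168601907, minus strand) follow.
Rcan1 upstream start: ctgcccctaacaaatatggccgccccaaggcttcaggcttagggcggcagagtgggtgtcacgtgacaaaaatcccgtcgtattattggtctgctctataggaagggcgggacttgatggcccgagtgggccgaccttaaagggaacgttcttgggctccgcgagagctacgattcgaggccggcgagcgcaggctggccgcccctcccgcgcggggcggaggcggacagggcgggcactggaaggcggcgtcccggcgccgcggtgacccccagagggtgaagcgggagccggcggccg
Rcan1 downstream start: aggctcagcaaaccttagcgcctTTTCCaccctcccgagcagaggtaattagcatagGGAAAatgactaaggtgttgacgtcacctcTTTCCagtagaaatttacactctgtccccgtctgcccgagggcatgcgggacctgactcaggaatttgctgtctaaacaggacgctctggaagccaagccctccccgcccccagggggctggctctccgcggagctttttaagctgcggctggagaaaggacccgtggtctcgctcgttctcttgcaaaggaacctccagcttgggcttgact
Acp5: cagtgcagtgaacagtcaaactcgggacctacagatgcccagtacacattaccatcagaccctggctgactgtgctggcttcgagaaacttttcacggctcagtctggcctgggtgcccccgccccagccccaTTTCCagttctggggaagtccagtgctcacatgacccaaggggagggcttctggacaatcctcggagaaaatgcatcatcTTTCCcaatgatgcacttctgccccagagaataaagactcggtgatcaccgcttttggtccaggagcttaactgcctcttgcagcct
Ctsk: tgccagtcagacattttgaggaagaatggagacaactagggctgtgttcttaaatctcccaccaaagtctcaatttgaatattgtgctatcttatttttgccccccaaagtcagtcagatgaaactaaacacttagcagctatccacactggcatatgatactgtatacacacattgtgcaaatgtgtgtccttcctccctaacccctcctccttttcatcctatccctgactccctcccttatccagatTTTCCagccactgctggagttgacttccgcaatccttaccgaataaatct
Nfatc2: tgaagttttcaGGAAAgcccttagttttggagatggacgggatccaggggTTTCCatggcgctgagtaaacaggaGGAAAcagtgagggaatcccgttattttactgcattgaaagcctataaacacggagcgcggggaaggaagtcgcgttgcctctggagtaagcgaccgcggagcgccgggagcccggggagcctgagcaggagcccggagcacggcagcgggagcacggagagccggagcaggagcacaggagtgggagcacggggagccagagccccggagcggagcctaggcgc

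The letters were found 0 times at the upstream Rcan1 start and 3 times at the downstream start, 2 times in the Acp5 window, 1 time in the Ctsk window and 3 times in the Nfatc2 window. The word is short and common. On either strand, 61.3% of the 32851 promoter windows in the table hold it at least 1 time, 26.7% at least 2 times and 9.42% at least 3 times. A window of Slc4a2 (chr5:24424982-24425281, plus strand) and the window of Tpm1 (chr9:67049164-67049463, minus strand) also held it 3 times. The windows of Itgav and Prdm1 held 0. Of the 19 measured genes listed as Nfatc1 targets, 14 had an entry, and 11 of these held the letters in at least 1 of their windows. Counted in the same way per gene, 63.8% of the 6576 measured genes in the table did, and no test was made. These counts describe the letters in 300 bases and not binding. Other starts are known for Acp5, with 1 match each in their windows, and for Nfatc2, with 1. The 2 windows of Nfatc3 held 1 and 0.

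Nfatc1 RNA was high in every culture at day 1 and stayed high with RANKL, while it fell in control cells. In control cells the signal was 4410 at day 1, 2134 and 861 at day 2, 441 and 539 at day 3, 541 and 380 at day 4, and 399 at day 5. In RANKL cells it was 4548 at day 1, 5340 and 4632 at day 2, 3075 and 4291 at day 4, and 3981 and 6460 at day 5. The day 1 arrays of both treatments lie inside the range of the later RANKL arrays. From day 2 on, all 6 RANKL arrays lie above all 5 control arrays of the same days, a separation seen in 0.957% of genes. The control arrays of day 2 lie between day 1 and days 3 to 5, and the pair differs more from each other than any other pair of control replicates.

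**Figure D1:**
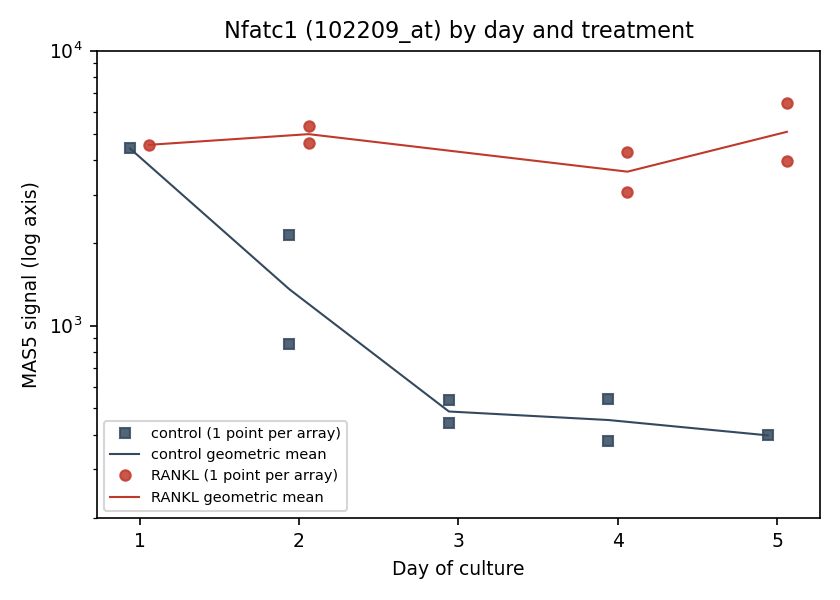
MAS5 signal of Nfatc1 (102209_at, log axis) against day of culture, with 1 point per array, control in blue squares and RANKL in red circles, and lines through the geometric means of the days measured. Control arrays go from 4410 at day 1 to 399 at day 5, while RANKL arrays stay between 3075 and 6460, with no RANKL array at day 3.

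The ratio of mean signals, RANKL over control, was 1.03 at day 1 (1 array each), 3.33 at day 2, 7.99 at day 4 and 13.1 at day 5. Differences below are in log2(signal + 32) with the standard error of a limma model of all 15 arrays, which lends the spread of the other groups to a group of 1 array, and adjusted p-values are Benjamini-Hochberg over all probe sets, with a threshold of 0.05. The offset of 32 makes a difference smaller for dim genes. Averaged over days 2, 4 and 5, Nfatc1 was higher with RANKL by 2.78 ± 0.23 (SE; 95% interval 2.27 to 3.28; adjusted p = 0.000106). It ranked 4 of 8251 genes from the top, where 1.71% of genes were called higher and 2.36% lower. With day 1 in the average the difference was 2.09 ± 0.22 (adjusted p = 0.000958).

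By day, the RANKL difference of Nfatc1 was 0.04 ± 0.52 at day 1 (adjusted p = 1.00, 1 array against 1; 0% of genes called), with a 95% interval of -1.10 to 1.19. It was 1.85 ± 0.37 at day 2 (adjusted p = 0.0461; 0.994% of genes called), 2.91 ± 0.37 at day 4 (adjusted p = 0.00731; 0.327% called) and 3.57 ± 0.45 at day 5 (adjusted p = 0.00556; 1.21% called). The day 2 call is at the edge of the threshold: it was lost without 9 of the 15 arrays, with values of 1.21 (adjusted p = 0.250) without control day 2 replicate 2 and 2.49 without control day 2 replicate 1. The day 4 call was lost without control day 4 replicate 2 (2.68, adjusted p = 0.0999) and without RANKL day 4 replicate 2 (2.68, adjusted p = 0.135). The day 5 call held without each array that leaves a value, with adjusted p up to 0.0284.

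Whether the RANKL difference itself changed with time was less certain than its size. The mean of days 4 and 5 exceeded day 2 by 1.39 ± 0.47, which did not pass (adjusted p = 0.583; 0.0242% of genes called), and leaving out each array gave 0.75 to 2.03. The mean of days 2, 4 and 5 exceeded day 1 by 2.73 ± 0.57 (adjusted p = 0.173; 0.0485% of genes called higher). It passed without control day 2 replicate 1 (2.94, adjusted p = 0.0466). So the growth of the gap with time, seen in the signals, was not separated from 0 after adjustment, and its unadjusted 95% intervals were 0.36 to 2.42 and 1.48 to 3.98.

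Within control cells, Nfatc1 at days 3 to 5 was lower than at day 1 by a difference of -3.22 ± 0.41 (95% interval -4.11 to -2.32; adjusted p = 0.00229). Only 2 of 8251 genes had a lower value there, and 3.99% of genes were called lower. Against day 2 the difference was -1.54 ± 0.31 (adjusted p = 0.0123; 10.4% of genes called in either direction). That call rests on control day 2 replicate 1, the array at 2134, without which it was -0.90 (adjusted p = 0.178). The signal at day 1 was 11.1 times that at day 5, with 1 array each.

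Within RANKL cells the values showed no change that passed. Days 4 and 5 against day 2 gave -0.21 ± 0.32 (95% interval -0.91 to 0.49; adjusted p = 0.766), in a comparison where 14.5% of genes were called. Days 2, 4 and 5 against day 1 gave -0.01 ± 0.40 (95% interval -0.88 to 0.86; adjusted p = 0.992; 1.18% of genes called). These intervals leave room for changes of less than 1 log2 unit either way. The day 1 value rests on 1 array.

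Ordered by mean log2 level, the groups of Nfatc1 were RANKL day 5 (mean signal 5221 ± 1753, SD, n = 2), RANKL day 2 (4986 ± 501), RANKL day 1 (4548), control day 1 (4410) and RANKL day 4 (3683 ± 860), and no neighbours among these differed beyond the 95% interval. Control day 2 came next (1498 ± 900), below RANKL day 4 by 1.40 ± 0.37, beyond the interval. Control day 3 (490 ± 69.2) was lower again by 1.42 ± 0.37, beyond the interval. Control day 4 (461 ± 114) and control day 5 (399) did not differ from their neighbours beyond it. By these unadjusted comparisons of neighbours the order has 3 levels: 5 groups at day 1 or with RANKL, control day 2, and control days 3 to 5. Groups within a level were not shown to be equal. The middle level rests on 2 arrays, at 2134 and 861. Without replicate 1 the control fall from day 2 was -0.90, and without replicate 2 the RANKL difference at day 2 was 1.21.

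In controls the beta-actin ratio was 1.23 at day 1 and 1.17 and 1.25 at day 2. On the 5 control arrays of days 3 to 5, where Nfatc1 was low, it was 1.01 to 1.16. The ratio was 1.19 at RANKL day 1 and 1.02 to 1.39 on the 6 RANKL arrays of days 2, 4 and 5. Within control cells both the ratio and Nfatc1 were thus lower at days 3 to 5 than at days 1 and 2. Why both fell was not tested. With this ratio as a covariate, an alternative chosen after the data were seen, the difference over days 2, 4 and 5 remained past the threshold, and the day 2 difference (2.09, adjusted p = 0.102) and the control fall from day 2 (-1.88, adjusted p = 0.0621) did not.

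Nfatc2, a calcineurin-dependent family member, had a flat signal by its brightest probe set. Control arrays read 307 at day 1, 245 and 327 at day 2, 375 and 331 at day 3, 296 and 312 at day 4, and 267 at day 5. RANKL arrays read 257 at day 1, 375 and 297 at day 2, 295 and 301 at day 4, and 328 and 312 at day 5. The treatments overlap, with 2 of 6 RANKL arrays above all controls of days 2, 4 and 5. The RANKL difference over those days was 0.14 ± 0.13 (95% interval -0.15 to 0.43; adjusted p = 0.713), and by day it ran from -0.23 at day 1 to 0.23 at day 5. Control days 3 to 5 against day 1 gave -0.0019 ± 0.24 (95% interval -0.52 to 0.52). No neighbouring groups in the order of its levels differed beyond the interval.

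The other Nfatc2 probe sets were dim and pointed the other way. The signal of 93074_g_at lay between 21.7 and 109, highest at control day 5, and its RANKL difference over days 2, 4 and 5 was -0.35 ± 0.16 (adjusted p = 0.353). That of 93075_r_at lay between 4.36 and 55.1, with 3 of 6 RANKL arrays below all controls of those days, and its difference was -0.49 ± 0.16 (adjusted p = 0.155). None of the 3 passed, so the sign of a small Nfatc2 difference depends on the probe set. The mean over the 3 gave -0.23.

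Nfatc3, the member best known from thymocytes and muscle, read 216 at control day 1, 186 and 257 at day 2, 309 and 230 at day 3, 287 and 273 at day 4, and 235 at day 5. With RANKL it read 281 at day 1, 282 and 250 at day 2, 274 and 373 at day 4, and 355 and 447 at day 5. The brightest are RANKL arrays of days 4 and 5, and 3 of 6 RANKL arrays lie above all controls of days 2, 4 and 5. The difference over those days was 0.37 ± 0.16 (unadjusted 95% interval 0.03 to 0.71; adjusted p = 0.282), and at day 5 it was 0.69 ± 0.31 (adjusted p = 0.337). Neither passed over all probe sets. Over days 2, 4 and 5 the value was 0.21 (adjusted p = 0.800) without control day 5 replicate 1 and 0.16 (adjusted p = 0.748) as the mean of its probe sets. The probe set 102050_at read 4.18 to 36.2 and gave -0.05 ± 0.13.

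**Figure D2:**
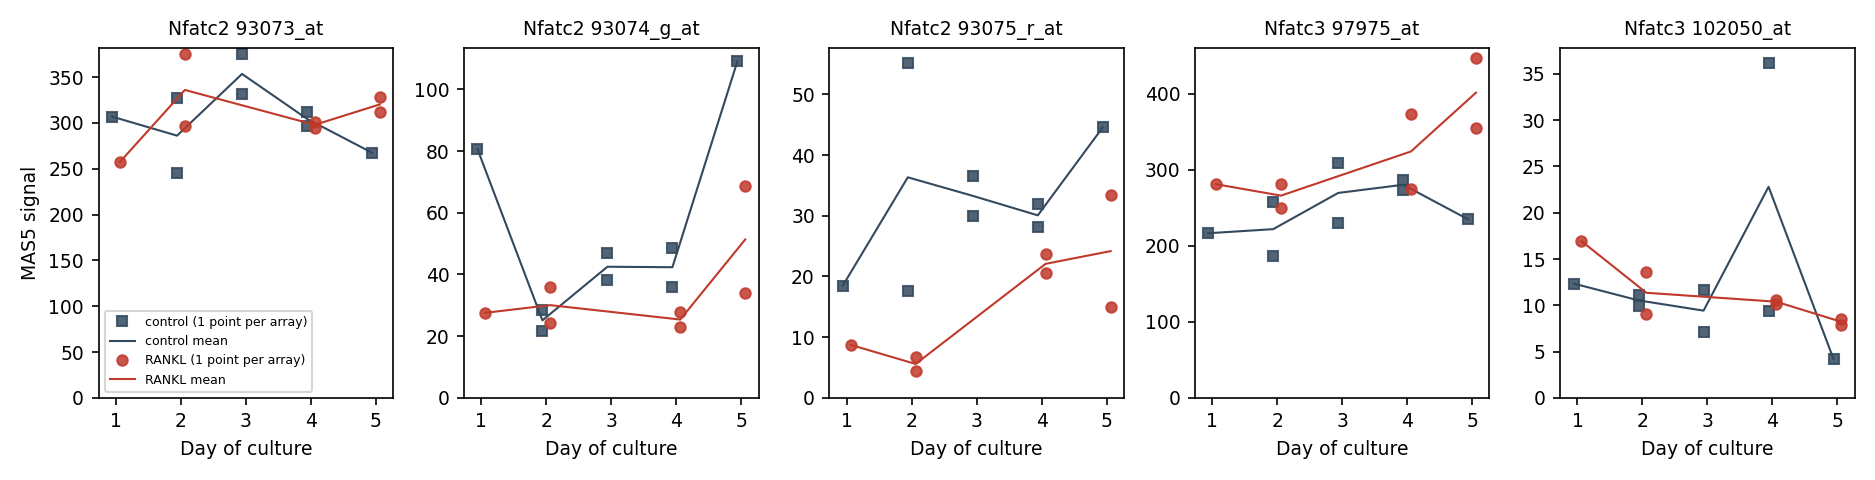
MAS5 signal of each Nfatc2 and Nfatc3 probe set against day of culture on linear axes from 0, 1 point per array and lines through group means, with control in blue squares and RANKL in red circles. The treatments overlap in 93073_at, while 97975_at reads 355 and 447 in the RANKL arrays of day 5 against 235 in the control array.

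Nfatc1 thus differed from its relatives in the size of the RANKL difference, and this was tested on the same arrays as the RANKL difference of 1 gene minus that of another, with treatment labels permuted within days. Nfatc1 exceeded Nfatc2 by 2.64 log2 units and Nfatc3 by 2.41 (two-sided exact permutation test over 11 arrays, p = 0.00926 each, the smallest that the 108 relabellings can give; adjusted p = 0.00926 over the 2 pairs). The genes were chosen with earlier results of these data known, and both pairs use the same Nfatc1 values. All RANKL arrays of Nfatc1 already lay above all controls of these days, so this p restates that separation and is not independent evidence. Without control day 5 replicate 1, which removes day 5, the differences were 2.29 and 2.17 (adjusted p = 0.0556 each by the same exact test, the smallest that its 36 relabellings can give, so that it could not pass).

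**Figure D3:**
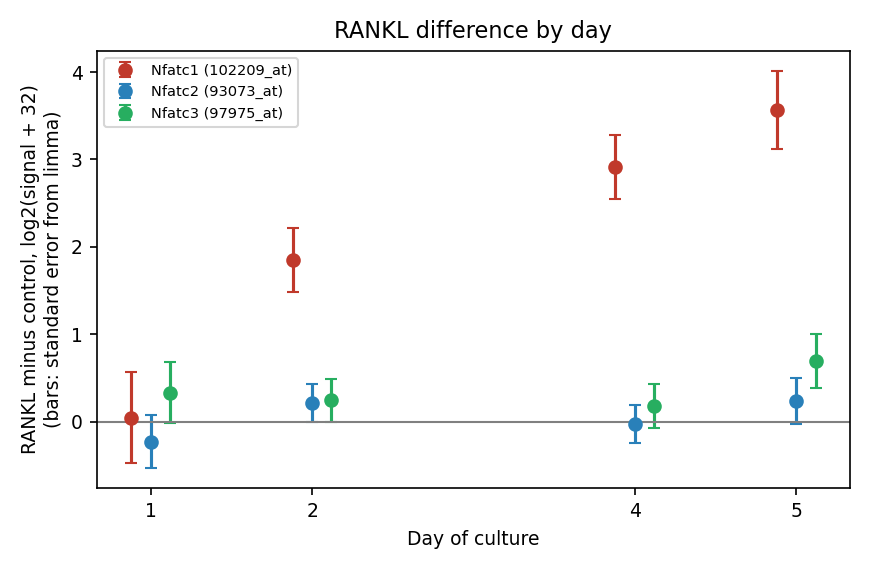
RANKL minus control in log2(signal + 32) at days 1, 2, 4 and 5 for the main probe sets of Nfatc1, Nfatc2 and Nfatc3, with bars for the standard error from limma. Nfatc1 goes from 0.04 at day 1 to 3.57 at day 5, while Nfatc2 and Nfatc3 lie between -0.23 and 0.69.

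The genes around NFAT were taken in 10 lists of 164 genes in all, of which 114 were measured. Over days 2, 4 and 5, 21 were called higher and 5 lower with RANKL (backgrounds of 1.71% and 2.36% of genes), and 12 of these 26 calls held in every alternative fitted. The median difference of all genes was 0.03. The lists were chosen with earlier results of these data known, so their shares of calls are not independent evidence.

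Of 5 listed calcineurin subunits 4 were measured and 0 were called (median -0.08), from -0.54 ± 0.17 for the catalytic subunit Ppp3cc (adjusted p = 0.123) to 0.02 ± 0.14 for the catalytic subunit Ppp3ca. With only the brighter 50% of probe sets in the limma fit, Ppp3cc passed (adjusted p = 0.0497). Ppp3ca read 228 to 771 in RANKL arrays of days 2, 4 and 5 and 292 to 671 in controls, so the treatments overlap. It was higher at days 4 and 5 than at day 2 within RANKL cells by 1.14 ± 0.20 (adjusted p = 0.00456), as was the regulatory subunit Ppp3r1 by 0.61 ± 0.17 (adjusted p = 0.0333). Ppp3ca was also higher at days 3 to 5 than at day 2 in controls, by 0.74 ± 0.20 (adjusted p = 0.0383).

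Rcan1, an inhibitor of calcineurin that NFAT induces, was the 1 of 6 measured regulators and anchors that was called higher, by 0.97 ± 0.18 (adjusted p = 0.0124). It read 1727 at control day 1, 1071 and 866 at day 2, 695 and 420 at day 3, 417 and 524 at day 4, and 543 at day 5. With RANKL it read 1567 at day 1, 1506 and 1242 at day 2, 760 and 1082 at day 4, and 1262 and 2059 at day 5. As for Nfatc1, its highest array is RANKL day 5 replicate 2, and control days 3 to 5 were below control day 1, by -1.68 ± 0.32 (adjusted p = 0.0100; 9.26% of genes called in either direction). RANKL day 4 replicate 1, at 760, lies below both control arrays of day 2. Its RANKL call was lost without control day 5 replicate 1 (0.70, adjusted p = 0.167) and with the beta-actin covariate (0.89, adjusted p = 0.152). Which of the Rcan1 starts shown above the probe set reads was not tested. Rcan3, Akap1 and Homer2 gave 0.08, 0.08 and 0.26 and were not called.

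Upstream of calcineurin there were few calls. Of 7 measured calmodulin and calmodulin-dependent kinase genes 0 were called (median 0.12). Camk2d, a calcium and calmodulin-dependent kinase, had the largest value at 0.82 ± 0.20 (adjusted p = 0.0515). Its RANKL arrays of days 2, 4 and 5 (72.8 to 159) lay above the controls (30.5 to 63.4), a separation seen in 0.957% of genes. At day 1 the control array (79.1) lay above the RANKL array (45.9). Camk2d passed in 4 of 21 alternatives. Among them were an offset of 1 (adjusted p = 0.0499), an offset of 100 (adjusted p = 0.0468) and a limma fit with no intensity trend (adjusted p = 0.0363). Without RANKL day 4 replicate 1 the Camk2d value was 0.92. Camk4, a kinase placed in the induction of Nfatc1 through Creb, gave 0.18 ± 0.19, and Creb1 gave 0.22 ± 0.18, with another Creb1 probe set of opposite sign. Of 7 measured genes of calcium release and entry 0 were called (median -0.13). The phospholipases Plcg1 and Plcg2 gave 0.24 and -0.21, the calcium store sensor Stim1 gave -0.35 ± 0.12 (adjusted p = 0.175) and the calcium release channel Itpr2 gave -0.32, with another probe set of opposite sign.

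Of 11 measured genes that pass immunoreceptor (ITAM) signals to calcium, 1 was called higher and 2 lower (median -0.03), where 1.71% and 2.36% of all genes were. The kinase Syk was higher by 0.47 ± 0.11 (adjusted p = 0.0414), a call lost in 15 of 22 alternatives. The Src-family kinase Fgr was lower by a difference of -1.23 ± 0.20 (adjusted p = 0.00646). By its brightest probe set, the exchange factor Vav1 was lower by a difference of -0.81 ± 0.17 (adjusted p = 0.0230). Its other probe sets gave -0.55 (adjusted p = 0.0569) and -0.17 (adjusted p = 0.791) and were not called. In controls from day 1 to days 3 to 5 those probe sets gave 1.11 and 0.09. The brightest rose in both treatments. It gave 1.50 ± 0.23 from day 2 to days 4 and 5 with RANKL (adjusted p = 0.00301). It gave 2.14 ± 0.30 from day 1 to days 3 to 5 in controls (adjusted p = 0.00284). Syk, Tec and Lcp2 also rose in both of these comparisons, where 8.74% and 5.27% of genes were called higher. Without control day 5 replicate 1, Syk, Fgr and Vav1 gave 0.31, -0.92 and -0.60 and 0 of the 3 was called. The adaptor Fcer1g, at -0.61 ± 0.19, did not pass (adjusted p = 0.138) but did without RANKL day 4 replicate 2 (-0.76, adjusted p = 0.0468).

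Of 14 measured kinases that return NFAT to the cytoplasm or act on it, 0 were called (median -0.12). Among these, Prkacb, a catalytic subunit of protein kinase A, at -0.37 ± 0.10 (adjusted p = 0.0703) and Gsk3a, a glycogen synthase kinase, at 0.49 ± 0.14 (adjusted p = 0.0995) did not pass. With only the brighter 50% of probe sets in the limma fit, Gsk3a passed (adjusted p = 0.0426). Pim1, a kinase of the Pim family, gave -0.61 ± 0.19 (adjusted p = 0.129), with -0.18 (adjusted p = 0.874) without control day 5 replicate 1 and a call without RANKL day 5 replicate 1 (-0.81, adjusted p = 0.00214). It rose in control cells from day 1 to days 3 to 5 by 1.74 ± 0.34 (adjusted p = 0.0114).

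Of 24 measured genes on the way from RANK to Nfatc1 induction, 6 were called higher and 0 lower (median 0.15), where 1.71% and 2.36% of all genes were. The list was chosen with earlier results known, so this share is not independent evidence. Of the 6 calls, 2 (Nfkb2 and Myc) held without control day 5 replicate 1. Myc, a growth transcription factor that RANKL induces, had the largest difference, higher with RANKL by 2.52 ± 0.33 (adjusted p = 0.00155). It read 730 at control day 1, 313 and 45.2 at day 2, 19.0 and 22.8 at day 3, 18.4 and 25.1 at day 4, and 79.6 at day 5. With RANKL it read 377 at day 1, 813 and 784 at day 2, 214 and 363 at day 4, and 779 and 602 at day 5. The day 1 arrays are high in both treatments, as for Nfatc1, while RANKL day 4 is lower than RANKL days 2 and 5 and overlaps control day 2. The call in time is the control fall, days 3 to 5 below day 1 by a difference of -3.48 ± 0.58 (adjusted p = 0.00608), while RANKL days 4 and 5 against day 2 gave -0.81 ± 0.46 (adjusted p = 0.307).

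Fos, the AP-1 partner of NFAT, was higher by 0.93 ± 0.15 (adjusted p = 0.00532), with RANKL arrays of days 2, 4 and 5 at 3777 to 7332 and controls at 1703 to 4328. A dim second Fos probe set had the opposite sign (-0.11). The call was lost without control day 5 replicate 1 (0.68, adjusted p = 0.0988). Fosl2, another AP-1 member, was higher by 0.80 ± 0.15 (adjusted p = 0.0133). All 6 of its RANKL arrays of days 2, 4 and 5 (189 to 382) lay above the controls (114 to 174), a separation seen in 0.957% of genes. The Fosl2 call too was lost without control day 5 replicate 1 (0.66, adjusted p = 0.111). Nfkb2, a subunit of the alternative NF-kB pathway, was higher by 0.84 ± 0.11 (adjusted p = 0.00157). It read 1464 at control day 1 and 477 to 732 on later control arrays, and its fall from day 1 to days 3 to 5 was -1.22 ± 0.19 (adjusted p = 0.00533). Nfkb2 also fell in RANKL cells from day 2 to days 4 and 5, by a difference of -0.69 ± 0.15 (adjusted p = 0.0134). At RANKL day 4 it read 771 and 699, and the lower value lies inside the range of the later controls. Ikbkg, the regulatory subunit of the IkB kinase, and Mitf, a partner of Nfatc1 at osteoclast genes, were higher by 0.48 ± 0.11 (adjusted p = 0.0363) and 0.64 ± 0.16 (adjusted p = 0.0485), and lost their calls in 13 and 15 of 22 alternatives. Jun, at -0.86 ± 0.22, did not pass (adjusted p = 0.0606) but did without RANKL day 5 replicate 1 (-0.99, adjusted p = 0.0310).

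Of 11 measured repressors of Nfatc1, 3 were called lower and 0 higher (median 0.04), where 2.36% and 1.71% of all genes were. The difference was above 0 for 6 of the 11, and of the 3 calls only 1 (Irf8) held in every alternative. This list too was chosen with earlier results known, so its share is not independent evidence. Irf8, an interferon regulatory factor that blocks Nfatc1, was lower by a difference of -1.84 ± 0.25 (adjusted p = 0.00173). It read 281 at control day 1, 684 and 1068 at day 2, 1689 and 1925 at day 3, 1667 and 1504 at day 4, and 1454 at day 5. With RANKL it read 420 at day 1, 206 and 107 at day 2, 1066 and 784 at day 4, and 399 and 137 at day 5. Its control levels thus run opposite to those of Nfatc1, with a rise from day 1 to days 3 to 5 of 2.39 ± 0.44 (adjusted p = 0.00837). The RANKL array with the lowest Nfatc1 signal, day 4 replicate 1, has the highest Irf8 signal, and in RANKL cells Irf8 was higher at days 4 and 5 than at day 2 by 1.47 ± 0.34 (adjusted p = 0.0165). Between treatments the levels do not mirror each other throughout. Irf8 at RANKL day 4 lies inside the range of control day 2, while Nfatc1 read 3075 and 4291 there against 2134 and 861 at control day 2.

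Rbpj, the nuclear effector of Notch signalling, and Bcl6, a repressor of osteoclast genes, were lower by differences of -0.90 ± 0.17 (adjusted p = 0.0120) and -0.70 ± 0.15 (adjusted p = 0.0263). Rbpj lost its call without control day 5 replicate 1 (-0.71, adjusted p = 0.125), and Bcl6 lost its call in 9 of 22 alternatives, among them without that array (-0.62, adjusted p = 0.141). Rbpj rose in both treatments, by 2.06 ± 0.29 in controls from day 1 to days 3 to 5 (adjusted p = 0.00324) and by 1.65 ± 0.23 in RANKL cells from day 2 to days 4 and 5 (adjusted p = 0.00194). The helix-loop-helix inhibitor Id1, at -0.93 ± 0.27, did not pass (adjusted p = 0.0929) but did without RANKL day 5 replicate 2 (-1.18, adjusted p = 0.0121). Id2 and Id3 were not called between treatments and fell with time in both, Id3 by a difference of -1.98 ± 0.30 in controls from day 1 (adjusted p = 0.00399) and -1.23 ± 0.23 in RANKL cells from day 2 (adjusted p = 0.00652).

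Genes listed as Nfatc1 targets in osteoclasts had the most calls of the 10 lists. Of 19 measured, 13 were called higher and 0 lower with RANKL over days 2, 4 and 5 (median 0.97), where 1.71% and 2.36% of all genes were. Of the 13 calls, 9 held without control day 5 replicate 1 and 8 held in every alternative. The list was chosen with these results known, so its direction is not independent evidence. Acp5, the acid phosphatase known as TRAP, was higher with RANKL by 6.06 ± 0.23 (adjusted p = 7.47e-08). It read 992 at control day 1, 257 and 90.6 at day 2 and 43.5 to 109 at days 3 to 5, against 535 at RANKL day 1, 5066 and 6914 at day 2, 6187 and 8863 at day 4, and 9370 and 12283 at day 5. Both day 1 arrays lie above every later control array, and the control fall was -3.36 ± 0.40 (adjusted p = 0.00145).

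Ctsk, the collagen-cleaving protease cathepsin K, was higher with RANKL by 3.62 ± 0.16 (adjusted p = 3.21e-07). Control arrays lay between 151 and 285 on all days, RANKL day 1 at 171, and the later RANKL arrays at 1051 and 1310, 2703 and 3585, and 5915 and 7481. Unlike Nfatc1, it was at its control level at day 1 in both treatments and rose within RANKL cells from day 2 to days 4 and 5 by 1.93 ± 0.22 (adjusted p = 0.00105). Mmp9, a matrix protease, was higher with RANKL by 3.18 ± 0.32 (adjusted p = 0.000387), and its day 2 RANKL arrays (709 and 628) overlap the controls of days 3 to 5 (432 to 896).

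The chemokine receptor Ccr1 was higher with RANKL by 2.36 ± 0.16 (adjusted p = 1.69e-05), the integrin subunit Itgav by 1.69 ± 0.14 (adjusted p = 0.000140) and the anion exchanger Slc4a2 by 1.12 ± 0.10 (adjusted p = 0.000163). At day 2 the Itgav treatments overlap (4530 and 3910 with RANKL, 3980 and 3738 in controls), and its gap opens where later control arrays read 656 to 1920. Its change within RANKL cells from day 2 did not pass (0.44 ± 0.20, adjusted p = 0.193). Itgav fell in controls from day 1 by a difference of -1.29 ± 0.26 (adjusted p = 0.0120), as did the carbonic anhydrase Car2, by -1.13 ± 0.21 (adjusted p = 0.00828), which with RANKL was higher by 0.96 ± 0.12 (adjusted p = 0.000988). The receptor kinase Mst1r gave 1.53 ± 0.25, the repressor Prdm1 1.29 ± 0.20 and the transcription factor Bhlhe40 1.17 ± 0.15, all called. Without control day 5 replicate 1, which leaves days 2 and 4, Mst1r (0.82, adjusted p = 0.295) and Prdm1 (0.91, adjusted p = 0.0960) lost their calls and Itgav kept its call at 0.91 (adjusted p = 0.0217). Mst1r and Prdm1 are dim, and with a pseudocount of 100 they gave 0.98 and 0.83. The proton pump subunit Tcirg1 (0.59 ± 0.13) and the chloride transporter Clcn7 (0.57 ± 0.13) were called by a small margin (adjusted p = 0.0309 and 0.0319) and lost their calls in 9 and 12 of 22 alternatives. In control cells, 4 of the 19 fell from day 1 to days 3 to 5 (Acp5, Itgav, Car2 and Rcan1) and 0 rose, where 3.99% of genes fell. In RANKL cells the Nfatc1 change from day 2 to days 4 and 5 was -0.21 ± 0.32 and did not pass. There, 7 of the 19 rose (Ctsk, Tcirg1, Clcn7, Mmp9, Prdm1, Ccr1 and Bhlhe40) and 0 fell, where 8.74% of genes rose. Both shares come from a list chosen with these results known, so they are not independent evidence.

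Of 13 measured genes that NFAT is known for in lymphocytes, such as Il2, 1 was called (median 0.04), where 1.71% of all genes were called higher and 2.36% lower. This was Egr2, a zinc finger factor that myeloid cells also express, higher by 1.22 ± 0.14 (adjusted p = 0.000634) and highest at RANKL day 4 (1732 and 2484). Cd40lg, a T cell ligand, read 2.16 to 54.5 and gave -0.22, Gata3 gave 0.35 and Ikzf1 gave -0.17, with another probe set of opposite sign.

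**Figure D4:**
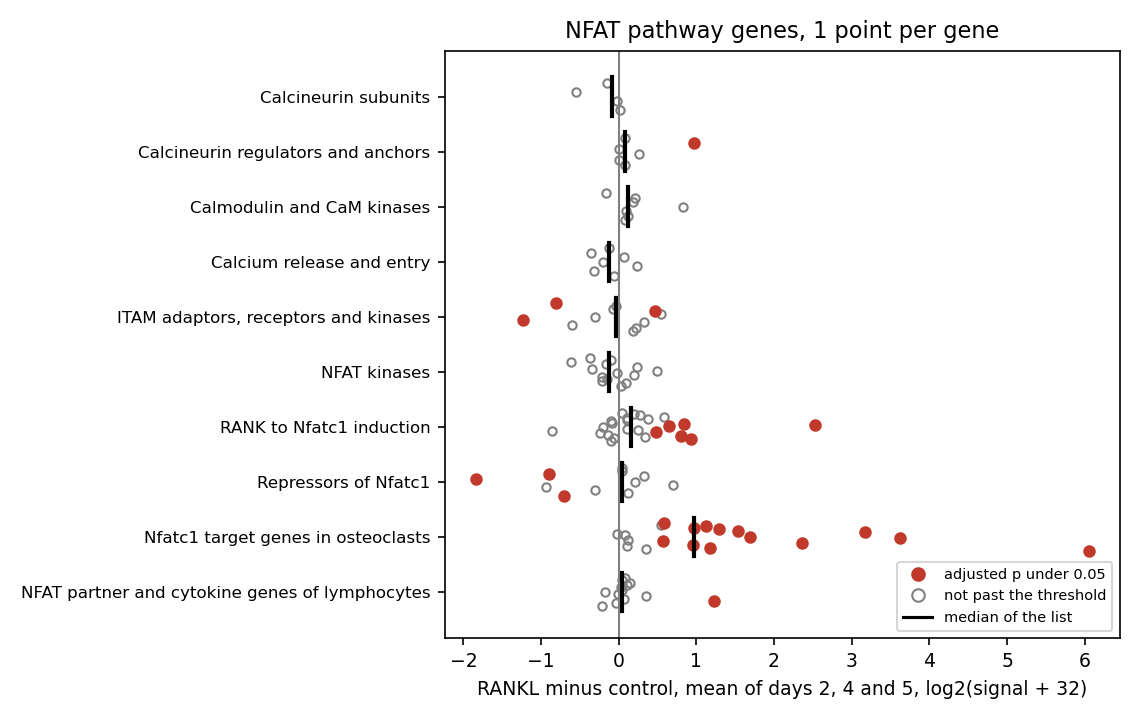
RANKL minus control in log2(signal + 32), mean of days 2, 4 and 5, with 1 point per measured gene in each of the 10 lists, filled where adjusted p was under 0.05 and with a black bar at the list's median. The 13 filled points of the target list lie between 0.57 and 6.06, while calcineurin subunits, calmodulin kinases, calcium genes and NFAT kinases have 0 filled points.

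The genes whose pattern was most like that of Nfatc1 were found by Pearson correlation of log2(signal + 32) over the 15 arrays, among 4955 genes with a highest signal of at least 200. Arrays of a group share day and treatment, so these are descriptions with no p. The highest were the actin-binding tropomyosin Tpm1 (r = 0.956), Myc (0.946), the growth factor Vegfc (0.933), the pyrophosphate transporter Ank (0.925), 2810025M15Rik (0.919), Crybg1 (0.916), Nckap1, a regulator of actin assembly (0.908), and Rcan1 (0.900). Lowest were Smagp (-0.938), Ift172 (-0.929) and Esyt1 (-0.924). Nfatc2 and Nfatc3 had r of -0.10 and 0.32.

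Likeness over all arrays did not always hold inside a treatment. Rcan1 followed Nfatc1 in the 8 control arrays (r = 0.900) and in the 7 RANKL arrays (r = 0.934). Tpm1 had r of 0.967 in controls and 0.511 in RANKL arrays, and Ank had 0.871 and -0.382. Acp5, at rank 12 of 4955 with r = 0.888, had 0.942 in controls and 0.088 in RANKL arrays. Ctsk had 0.469 and 0.033. Irf8 had -0.957 in controls and -0.790 in RANKL arrays. Vegfc read 196 at control day 1, 57.3 and 8.06 at day 2 and 4.74 to 6.64 at days 3 to 5, against 71.7 to 342 with RANKL.

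**Figure D5:**
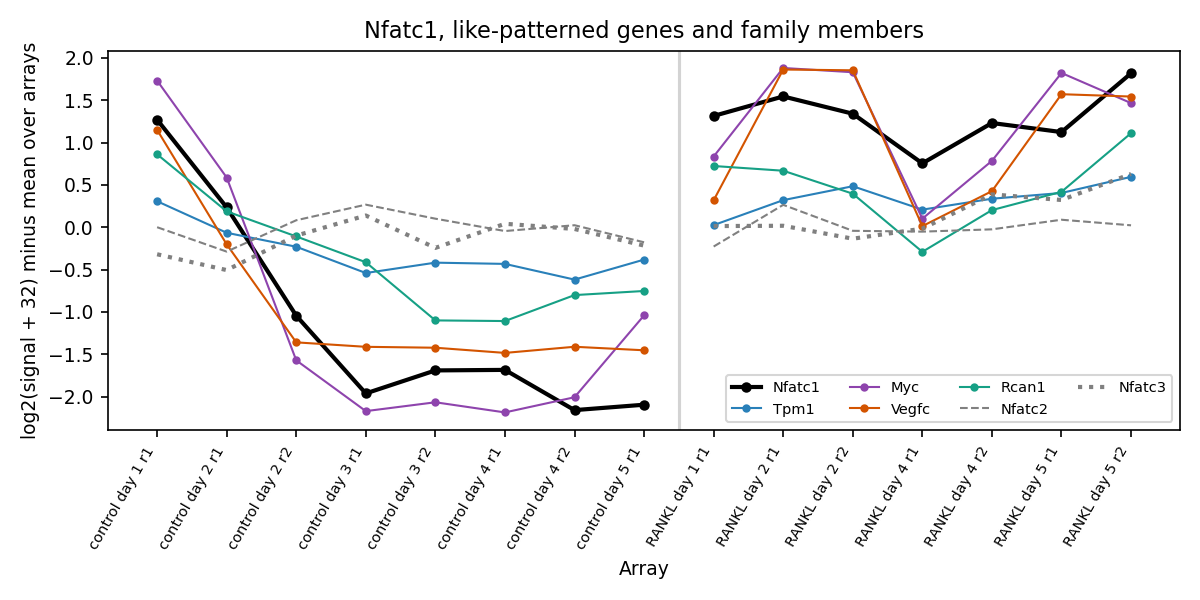
log2(signal + 32) minus each gene's mean over the 15 arrays, for Nfatc1 (black), 4 genes of like pattern (Tpm1, Myc, Vegfc, Rcan1) and Nfatc2 and Nfatc3 (grey), with control arrays left and RANKL arrays right of the grey line; lines only join points of a gene. The 4 genes are high at control day 1 and low on control days 3 to 5, as Nfatc1 is, while Nfatc2 and Nfatc3 have r of -0.10 and 0.32 with it. At RANKL day 1, Tpm1 read 1583, below its later RANKL arrays (1801 to 2365).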

How the data were processed

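Total RNA of RAW 264.7 cells was labelled with biotin and hybridised to 15 Affymetrix arrays. The deposited values are signal intensities on a linear scale, which the authors made with MAS5, per the submitters' processing notes. The version is not given in the sources used here. The 2% trimmed mean was alike on all arrays, so no further normalization was applied. Of 12488 probe sets, 66 controls were left out. The annotation gave 1 gene for 10833 of the others, several for 396 and none for 1193.

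log2(signal + 32) was fitted with limma 3.58.1 in R 4.3.3, with 1 mean per group (9 groups), eBayes with an intensity trend, 6 residual and 5.39 prior degrees of freedom, no filter on dim signals, two-sided tests and Benjamini-Hochberg adjustment over 12422 probe sets (threshold 0.05). The fit was tested on simulated data. Where a gene had several probe sets, the brightest by mean log2 value was used.

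The Nfat members, the 10 pathway lists and the comparisons were chosen with earlier results of these data known. All Nfat probe sets are named, with up to 4 genes of each list by size of the RANKL difference, every list member past the threshold there, the 8 genes most correlated with Nfatc1 and the 3 least. Tec, Lcp2, Id2 and Id3, and among the correlations Acp5, Ctsk and Irf8, were named after their values were seen. Alternatives were quantile normalization, other pseudocounts (1 and 100), only the brighter 50% of probe sets, no intensity trend, a replicate block, each array left out, the mean over a gene's probe sets and, added after the data were seen, the beta-actin ratio as a covariate. Replicate numbers did not pair arrays: over 15 pairs of groups the replicate differences correlated at r = -0.17 to 0.12.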

Additional observations from a re-analysis of the deposited data

Results flagged for a closer look

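The RANKL difference of 4 genes listed as Nfatc1 targets differed between days by a test of that difference, where 0.0485% of all genes were called higher against day 1 and 0.0242% for days 4 and 5 minus day 2. Acp5 had a difference over days 2, 4 and 5 that exceeded day 1 by 6.91 ± 0.56 (limma, adjusted p = 0.000574), Ctsk by 4.20 ± 0.40 (adjusted p = 0.00123) and Ccr1 by 2.93 ± 0.39 (adjusted p = 0.0213). The difference of Itgav was larger at days 4 and 5 than at day 2 by 2.35 ± 0.30 (adjusted p = 0.0462), a call at the edge of the threshold that was lost in 14 of 22 alternatives, among them without control day 5 replicate 1 (1.58, adjusted p = 0.324). The Ccr1 call was lost in 6 of 20 alternatives, 5 of them arrays left out (adjusted p = 0.0525 to 0.0677) and the other the beta-actin covariate (2.81, adjusted p = 0.155). The Acp5 and Ctsk calls held in all 20 alternatives that gave a value. The day 1 values rest on 1 array per treatment. There the control array read above the RANKL array for Acp5 (992 against 535) and Ctsk (271 against 171), which enlarges these values. Over days 2, 4 and 5 alone the differences were 6.06 for Acp5, 3.62 for Ctsk and 2.36 for Ccr1. These genes come from a list chosen with earlier results known. For Nfatc1 the same tests gave 2.73 ± 0.57 (adjusted p = 0.173) and 1.39 ± 0.47 (adjusted p = 0.583). No group had the 4 arrays that a search for outlying arrays needs.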

How the results depend on the processing

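The Nfatc1 difference over days 2, 4 and 5 kept its direction and its call in all alternatives run, from 2.38 to 2.99 with each array left out in turn, as did the day 5 difference and the control fall from day 1 (-3.30 to -3.14). The day 2 difference (1.85, adjusted p = 0.0461) lost its call with a pseudocount of 100 (1.79, adjusted p = 0.0590), quantile normalization (1.80, adjusted p = 0.0831), no intensity trend (1.85, adjusted p = 0.0865), the replicate block (1.85, adjusted p = 0.0669) and the beta-actin covariate chosen after the data were seen (2.09, adjusted p = 0.102), and ran from 1.21 to 2.49 without each array. With that covariate the control fall from day 2 was -1.88 (adjusted p = 0.0621). It ran from -2.18 to -0.90 without each array, and the day 4 difference from 2.68 to 3.15. The difference of days 2, 4 and 5 minus day 1 ran from 2.34 to 2.94. Differences near 0 changed sign. These were Nfatc1 at day 1 with quantile normalization (-0.10) and the covariate (-0.044), and Nfatc1 in RANKL cells against day 1 with quantile normalization (0.15), the replicate block (0.031), the covariate (0.0077) and arrays left out (-0.13 to 0.10). Nfatc2 changed sign with the mean of its probe sets over days 2, 4 and 5 (-0.23) and at day 5 (-0.34), and in controls against day 1 with the block (0.0021), the mean of its probe sets (0.042), the covariate (0.041) and arrays left out (-0.029 to 0.086). Over days 2, 4 and 5, leaving out arrays also crossed 0 for Ppp3ca (-0.11 to 0.10; -0.083 with the covariate), Ppp3cb (-0.21 to 0.10), Rcan3 (-0.033 to 0.20), Akap1 (-0.0035 to 0.16), Homer2 (-0.084 to 0.39), Crem (-0.30 to 0.012) and Ikzf1 (-0.38 to 0.036). The exact permutation comparison of Nfatc1 with Nfatc2 ran from 2.29 to 2.91 and that with Nfatc3 from 2.12 to 2.69 without each array. The causes were not tested.

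The count of probe sets called moved by more than 1.5 times in several fits. Over days 2, 4 and 5 it was 426, against 121 with the covariate and 155 without control day 5 replicate 1. The day 2 count was 106, against 34 with the covariate, 68 with no intensity trend and 2 to 147 with arrays left out. The day 4 count was 33, against 12 with the covariate and 9 to 54 with arrays left out, and the day 5 count was 114, against 64 with the replicate block, 244 in the upper 50% of probe sets and 52 to 355 with arrays left out. Control days 3 to 5 gave 987 against day 1 (192 with the covariate) and 1149 against day 2 (138 with the covariate, 92 without control day 2 replicate 1). RANKL days 4 and 5 against day 2 gave 1520 (284 with the covariate, 229 without RANKL day 2 replicate 2), and RANKL days 2, 4 and 5 against day 1 gave 130 (73 with the covariate, 56 with the block, 273 with a pseudocount of 1, 338 in the upper 50%). The changes of the RANKL difference gave 2 for days 4 and 5 minus day 2 (0 to 8) and 6 against day 1 (3 to 27). At day 1 limma called 0 probe sets, with 728 at an unadjusted p under 0.05. Arrays of the same number were not paired, and the replicate block changed no other Nfat call. Groups of 1 or 2 arrays limit the precision, and 3 groups have no spread of their own.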
